A study of Mus musculus with 2 samples.

Results

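Endocardial cells of embryonic mouse hearts were followed here: the 368 cells that the authors named endo_ec, 8.10% of the 4546 cells for which a cell type name was used. They were chosen by that deposited name alone. The hearts came from a study of fibroblast ablation at E16.5 and E18.5, measured as single cells in 2 pooled 10x 3' libraries, and the named cells all belonged to pool 1. They were 62.7% of its 7251 cells, because the copy of the authors' table used here ends early, and the named cells of pool 2 were not analysed here. Ablated samples were Pdgfra-CreER+/-;Rosa-DTA+/-: a recombinase driven by the fibroblast gene Pdgfra, and active only once induced, switches on the diphtheria toxin fragment DTA in the cells that recombine. Control samples were Rosa-DTA+/- without the recombinase, so all 4 samples carried the toxin allele. Each stage and condition was 1 barcoded sample, and the labels do not say how many hearts it held or when the recombinase was induced.

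The endocardium is the endothelial layer that lines the chambers of the heart and covers the valves. It differs from the vascular endothelium of the coronary vessels and capillaries, to which it is closely related, and during development it gives rise to valve mesenchyme and adds cells to the coronary vessels. Natriuretic peptide receptor Npr3 and the secreted protein Cytl1 are used to mark endocardial cells, whereas the adhesion molecule Pecam1 and the membrane protein Plvap, which forms the diaphragms of endothelial pores, occur in other endothelial cells too. Values of single genes were not analysed here, so the name could not be checked against these markers. The endocardial cells filled 4 of the 40 integrated clusters (clusters made by the authors over both pools). The names follow whole clusters, with 0 cells of another name in those 4, so this is no check of the name.

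Each endocardial cell was tied to its sample by a MULTI-seq barcode, a sequence of 8 bases that labelled the cells of 1 sample before pooling. The barcodes of the 4 samples of pool 1 are shown because every comparison below rests on them, with the whole barcode in capitals.
E16.5 ablated: GGACCCCA
E16.5 control: TTAGCCAG
E18.5 ablated: TGACCGAT
E18.5 control: CCAACCGG

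The 4 barcodes marked 67 endocardial cells in the E16.5 ablated sample and 207 in the E16.5 control sample. They marked 49 in the E18.5 ablated sample and 45 in the E18.5 control sample. Their UMI totals were 766388 in the E16.5 ablated and 2278192 in the E16.5 control sample, and 419716 in the E18.5 ablated and 398611 in the E18.5 control sample. Single endocardial cells held between 1862 and 41735 UMIs, with a median of 9331.5, and between 1269 and 7314 detected genes. Of the 19 cell barcodes that occurred in both pools, 2 belonged to endocardial cells.

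The endocardial share of cells lay above the control value in the ablated sample at E16.5 and below it at E18.5. It was 10.1% (95% exact binomial interval 7.89 to 12.6) in the E16.5 ablated sample, against 8.50% (7.42 to 9.68) in the E16.5 control. It was 5.65% (4.21 to 7.40) in the E18.5 ablated sample, against 7.77% (5.73 to 10.3) in the E18.5 control. The intervals of both differences held 0, at 1.57 points (-0.906 to 4.34) for E16.5 and -2.12 points (-4.997 to 0.574) for E18.5. Intervals here take in counting error alone, without any spread from heart to heart, and a share can move because other cell types do.

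Against the vascular endothelial cells the differences had the same signs. They were larger in percentage points, but the shares themselves were also larger, so the sizes are not comparable with those for all cells. Endocardial cells were 67 of 111 endothelial cells in the E16.5 ablated sample, or 60.4% (50.6 to 69.5), against 207 of 431 in the E16.5 control, or 48.0% (43.2 to 52.9). The difference of 12.3 points had an interval above 0 (1.47 to 22.7). Without the 10% of endothelial cells with the highest mitochondrial percent it was 11.4 points and its interval held 0 (-0.206 to 22.4). At E18.5 they were 49 of 144 endothelial cells in the ablated sample, or 34.0% (26.3 to 42.4), against 45 of 103 in the control, or 43.7% (33.9 to 53.8), a difference of -9.66 points whose interval held 0 (-22.4 to 3.18). The vascular endothelial share of all cells went the other way at each stage, with 6.62% in the ablated and 9.20% in the control sample at E16.5, and 10.96% in the ablated and 10.0% in the control sample at E18.5. Averaged over the stages the difference was 1.34 points for the endocardial share of endothelial cells and -0.273 points for that of all cells. The exact two-sided permutation test of condition within stage gave p = 1 for each, and 0.5 is the smallest p it can give with these samples.

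**Figure D1:**
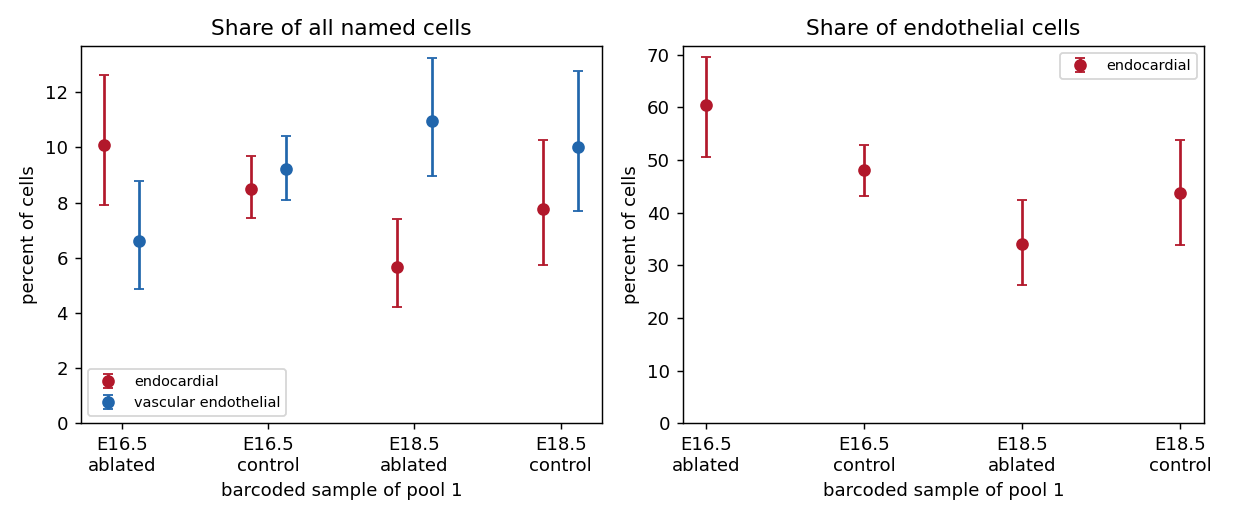
Endocardial cells (red) and vascular endothelial cells (blue) as a percent of all named cells (left), and endocardial cells as a percent of both endothelial types (right), for each barcoded sample of pool 1. Points are shares and bars are 95% exact binomial intervals; the endocardial share of endothelial cells is 60.4% in the E16.5 ablated and 34.0% in the E18.5 ablated sample, with both controls between them at 48.0% and 43.7%.

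Pool 1 also had cluster numbers of its own, made within the pool, and these cover all of its 7251 cells. Its cluster 5 was almost purely endocardial: 366 of its 374 named cells were endocardial, 5 were vascular endothelial, and only 2 endocardial cells lay in another of these clusters. With its 192 cells that had no name here, it held 566 cells. The cluster made up 10.5% (8.70 to 12.5) of the E16.5 ablated sample, 112 of 1070 cells, against 7.61% (6.80 to 8.49) of the E16.5 control, 298 of 3914 cells. At E18.5 it made up 5.65% (4.48 to 7.03) of the ablated sample, 76 of 1344 cells, against 8.67% (6.93 to 10.7) of the control, 80 of 923 cells. Both intervals left out 0, at 2.85 points (0.879 to 5.004) for E16.5 and -3.01 points (-5.34 to -0.801) for E18.5. Both the number of cells and the definition of the group differ from the named cells, and all come from the same library, so this is not a second sample.

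The size of the difference depended on what the cells were counted against. Among non-cardiomyocyte cells the endocardial share was 24.2% in the E16.5 ablated and 16.8% in the E16.5 control sample, and 7.79% in the E18.5 ablated and 9.16% in the E18.5 control sample. Among non-fibroblast cells it was 11.5% in the ablated and 10.8% in the control sample at E16.5, and 8.11% in the ablated and 14.4% in the control sample at E18.5. Cardiomyocytes made up 58.3% of the E16.5 ablated and 49.5% of the E16.5 control sample, and 27.5% of the E18.5 ablated and 15.2% of the E18.5 control sample. Their part in the endocardial shares was not tested. The sign at each stage was the same with each of the 4 denominators. The E16.5 interval left out 0 against non-cardiomyocyte cells (1.95 to 13.2) and the E18.5 interval against non-fibroblast cells (-11.2 to -1.86).

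Between stages, the endocardial share of all cells differed by -4.42 points (interval -7.35 to -1.63) at E18.5 relative to E16.5 in the ablated samples. In the controls the difference was -0.729 points, and its interval held 0 (-3.09 to 1.98). Among endothelial cells the same stage difference was -26.3 points in the ablated samples (-38.3 to -13.5) and -4.34 points in the controls (-15.2 to 6.87). Against non-cardiomyocyte cells it was below 0 in both, at -16.4 points in the ablated samples (-22.2 to -10.9) and -7.68 points in the controls (-10.9 to -4.12). Against non-fibroblast cells both intervals held 0, at -3.42 points in the ablated samples (-6.96 to 0.0832) and 3.65 points in the controls (-0.333 to 8.25). Each stage was a single sample per condition, so stage and sample cannot be told apart.

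The 4 integrated clusters divided the endocardial cells unequally. Cluster 5 of the integrated numbering held 224 cells, or 60.9% of them, cluster 23 held 64, and clusters 31 and 33 held 40 each. All 4 clusters had cells in all 4 samples, down to 2 cells of cluster 23 in the E18.5 control.

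At E16.5 no cluster's share differed between the ablated and the control sample beyond counting error. Cluster 5 was 62.7% (50.0 to 74.2) of endocardial cells in the ablated and 60.9% (53.9 to 67.6) in the control sample. Cluster 23 was 14.9% in the ablated and 18.8% in the control sample, cluster 31 was 10.4% in the ablated and 12.1% in the control sample, and cluster 33 was 11.9% in the ablated and 8.21% in the control sample. The intervals of all 4 differences held 0.

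At E18.5 the makeup differed. Cluster 5 was 42.9% (28.8 to 57.8) of endocardial cells in the ablated sample, 21 of 49, against 77.8% (62.9 to 88.8) in the control, 35 of 45, a difference of -34.9 points (-52.8 to -13.8). Cluster 23 was 26.5% (14.95 to 41.1) in the ablated sample, 13 cells, against 4.44% (0.543 to 15.1) in the control, 2 cells, a difference of 22.1 points (6.31 to 37.2). Cluster 33 was 20.4% in the ablated and 11.1% in the control sample and cluster 31 was 10.2% in the ablated and 6.67% in the control sample, and both of these intervals held 0. As a share of all cells, cluster 5 was 2.42% in the ablated and 6.04% in the control sample at E18.5, and cluster 23 was 1.499% in the ablated and 0.345% in the control sample. There was 1 sample per condition and no test within the stage. The differences of clusters 5 and 23 had opposite signs at the 2 stages. Without the cells of highest mitochondrial percent the E16.5 differences changed sign, to -0.330 points for cluster 5 and 3.26 points for cluster 23, and the E18.5 signs did not.

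Between stages the makeup differed in both conditions. Cluster 5 differed by -19.8 points (-37.99 to -0.242) at E18.5 relative to E16.5 in the ablated samples and by 16.9 points (0.605 to 29.97) in the controls. Cluster 23 was 4.44% of endocardial cells at E18.5 against 18.8% at E16.5 in the controls, a difference of -14.4 points (-21.6 to -2.54). In the ablated samples the same difference was 11.6 points, and its interval held 0 (-4.24 to 28.0).

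**Figure D2:**
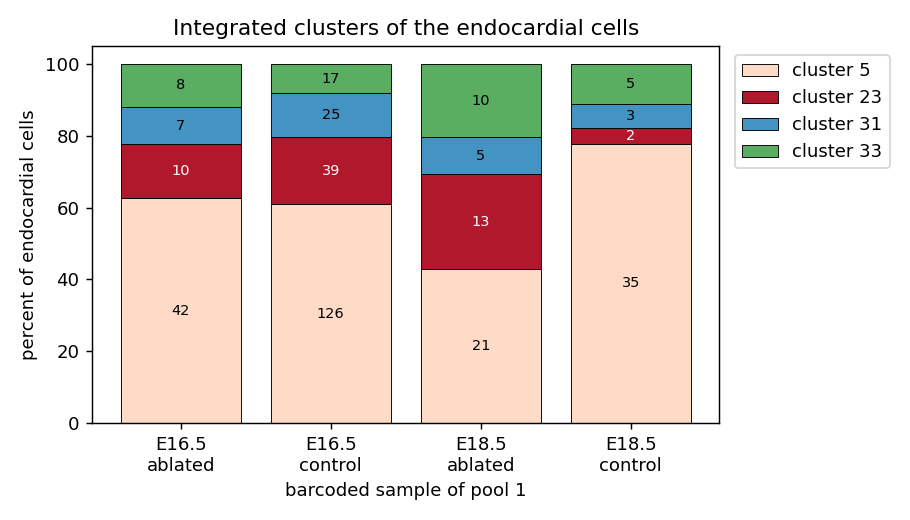
Percent of endocardial cells in each of the 4 integrated clusters, by barcoded sample of pool 1, with the number of cells written in each segment. Cluster 5 is 62.7% of the ablated and 60.9% of the control bar at E16.5, whereas at E18.5 it is 42.9% of the ablated and 77.8% of the control bar and cluster 23 is 26.5% of the ablated and 4.44% of the control bar.

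The clusters differed in the deposited per-cell values as follows, given as a description because clusters are made from the same RNA. Cluster 31 was made up of cells called in S or G2M phase: all 40 were, 14 in S and 26 in G2M. It also had the deepest cells, with a median of 12987 UMIs and 4421.5 detected genes. Clusters 5 and 23 were close to each other, with medians of 8594 UMIs and 3427.5 genes in cluster 5 and of 8734.5 UMIs and 3434 genes in cluster 23. Cluster 33 had a median of 9800.5 UMIs and the lowest median S score, -0.145.

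The mitochondrial percent of clusters 5 and 23 differed through 1 sample. Of the 64 cells of cluster 23, 11 lay above 5% mitochondrial UMIs, or 17.2% (8.90 to 28.7), against 8 of 224 cells of cluster 5, or 3.57% (1.55 to 6.92). Of those 11 cells, the E16.5 control gave 10 and the E18.5 ablated sample 1. Without the E16.5 control the shares were 4.0% (0.101 to 20.4) in cluster 23, 1 of 25 cells, and 6.12% (2.28 to 12.9) in cluster 5, 6 of 98 cells, which turned the direction. The 13 cluster 23 cells of the E18.5 ablated sample had a median of 2.10% mitochondrial UMIs and 6745 UMIs. The median UMI count of its 21 cluster 5 cells was 9207. Without the 10% of endothelial cells with the highest mitochondrial percent, the cluster 23 difference at E18.5 was 24.1 points.

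Calls of S or G2M phase were rarer among endocardial than among vascular endothelial cells in all 4 samples. These calls are the authors', made from scores of genes of DNA synthesis (S) and of the approach to and passage through mitosis (G2M). In the E16.5 ablated sample 20.9% (11.9 to 32.6) of endocardial and 63.6% (47.8 to 77.6) of vascular endothelial cells were so called. In the E16.5 control the shares were 24.6% (18.9 to 31.1) of endocardial and 63.4% (56.7 to 69.7) of vascular endothelial cells. In the E18.5 ablated sample they were 24.5% (13.3 to 38.9) of endocardial and 44.2% (34.0 to 54.8) of vascular endothelial cells. In the E18.5 control they were 28.9% (16.4 to 44.3) of endocardial and 39.7% (27.05 to 53.4) of vascular endothelial cells. The 4 endocardial shares, from 20.9% to 28.9%, lay below all 4 vascular endothelial ones.

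Over the 4 samples the share called S or G2M averaged 24.7% ± 3.27 in endocardial and 52.7% ± 12.6 in vascular endothelial cells (SD, n = 4), a difference of -28.0 points with sample values from -42.7 to -10.8. An exact two-sided sign-flip test over the 4 samples gave p = 0.125, the smallest it can give, and an adjusted p of 0.21 over 42 comparisons (6 measures against 7 other types). The lower share held for S calls, at -12.7 points, and for G2M calls, at -15.3 points. The SDs span both stages and both conditions.

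**Figure D3:**
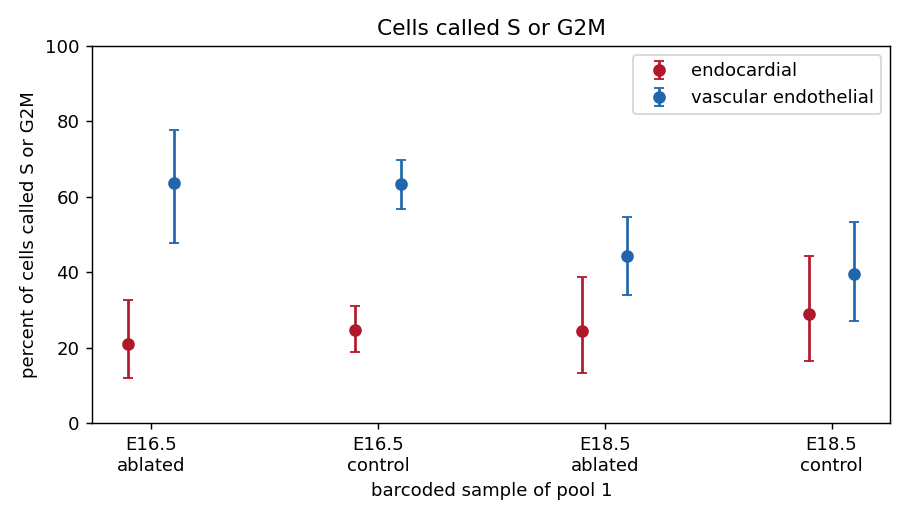
Percent of endocardial (red) and vascular endothelial (blue) cells called in S or G2M phase in each barcoded sample of pool 1, with 95% exact binomial intervals. The endocardial points run from 20.9% to 28.9% and each lies below the vascular endothelial point of its sample.

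Depth differed between these types and could not be equalised, since values of single genes were not analysed here. In the E16.5 ablated sample the median UMI count was 8711 in endocardial and 13042.5 in vascular endothelial cells, and in the E16.5 control 9919 in endocardial and 13804.5 in vascular endothelial cells. At E18.5 endocardial cells were the deeper type, with 8245 UMIs against 6949 in vascular endothelial cells of the ablated sample and 7741 against 6284.5 in those of the control. Within the cells of 5000 to 15000 UMIs, a window set after seeing the data, the endocardial share called S or G2M was again lower in all 4 samples, with a mean difference of -31.3 points (exact sign-flip p = 0.125, from -64.4 to -11.2). The value of -64.4 came from the E16.5 ablated sample, where 12 of 15 vascular endothelial cells were so called. Depth stayed unequal within the window. The medians of that sample were 8364 UMIs in endocardial and 10836 in vascular endothelial cells, and endocardial cells were the deeper type in each other sample. RNA from outside the cells can enter such scores, and its part was not tested.

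The other cell types gave the same placing at E16.5 but not at E18.5. Among all 8 types the endocardial share called S or G2M was the lowest in both E16.5 samples and the sixth from the highest in both E18.5 samples. The endocardial share was below that of fibroblasts, ventricular cardiomyocytes and epicardial cells in 4 of 4 samples, below that of mural cells and atrial cardiomyocytes in 3 of 4, and below that of immune cells in 2 of 4. The mean differences were -20.7 points against mural cells, -19.7 against fibroblasts, -12.3 against ventricular cardiomyocytes, -9.68 against epicardial cells, -7.37 against atrial cardiomyocytes and -3.82 against immune cells. The highest sample differences were 0.764 points for mural cells and 15.7 points for atrial cardiomyocytes. For immune cells the exact sign-flip test gave p = 0.5 (adjusted p = 0.553).

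Among endocardial cells 59 were called S and 31 G2M, and 26 of the 31 G2M cells lay in cluster 31. Among vascular endothelial cells, cluster 15 held 135 cells, all called S or G2M. It was 32.1% of its type, against the 10.9% that cluster 31 made up of the endocardial cells. The remaining endocardial clusters had 14.3% (cluster 5), 20.3% (cluster 23) and 12.5% (cluster 33) of cells so called, against 35.0% in the other vascular endothelial cluster, cluster 2.

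**Figure D4:**
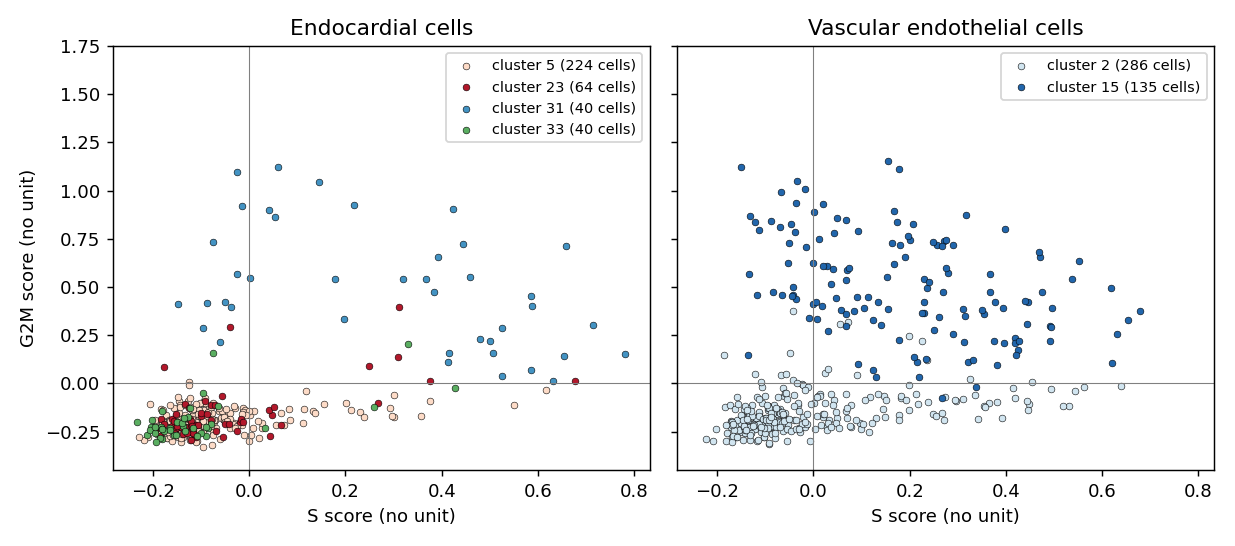
S score against G2M score of each endocardial cell (left) and vascular endothelial cell (right), coloured by integrated cluster; the scores are the authors' and have no unit, and the grey lines mark 0. Cluster 31 (40 cells) carries nearly all of the high G2M scores among endocardial cells, whereas cluster 15 (135 cells) does so among vascular endothelial cells.

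Between ablated and control samples the endocardial phase calls were not distinguishable at this depth. The difference in the share called S or G2M was -3.74 points at E16.5, with an interval from -14.8 to 9.25. At E18.5 it was -4.40 points, with an interval from -23.4 to 14.7. Calls of S were 10.4% in the ablated and 16.9% in the control sample at E16.5, and 14.3% in the ablated and 22.2% in the control sample at E18.5. Calls of G2M were 10.4% in the ablated and 7.73% in the control sample at E16.5, and 10.2% in the ablated and 6.67% in the control sample at E18.5. The mean difference over both stages was -4.07 points for both calls together, -7.20 for S and 3.13 for G2M. Each gave an exact permutation p of 0.5, which is the smallest possible, so the p says nothing about the size. Outside cluster 31 the differences were -2.62 points at E16.5 and -7.90 points at E18.5, and both intervals held 0.

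Mitochondrial transcripts set the endocardial cells apart from the other non-cardiomyocyte types. The median share of mitochondrial UMIs of endocardial cells was 2.32% in the E16.5 ablated and 2.41% in the E16.5 control sample, and 2.18% in the E18.5 ablated and 2.27% in the E18.5 control sample. The 20 sample medians of vascular endothelial, immune, epicardial, mural and fibroblast cells ran from 1.37% to 1.92%, so that the lowest endocardial median lay above all of them. The 8 medians of atrial and ventricular cardiomyocytes, which are rich in mitochondria, ran from 5.25% to 14.6%, above all endocardial ones.

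Against vascular endothelial cells the difference was 0.741 percentage points (sample values from 0.514 to 0.857), with 2.29% ± 0.0944 in endocardial and 1.55% ± 0.0873 in vascular endothelial cells (SD, n = 4). Against the other 4 non-cardiomyocyte types it was between 0.552 points (epicardial) and 0.764 points (mural). Each of these 5 differences had the same sign in 4 of 4 samples, with an exact sign-flip p of 0.125, the smallest possible, and an adjusted p of 0.21.

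The difference lay in the bulk of the cells and not in a few with very high values. The quartiles were 1.83% and 2.96% in endocardial cells, against 1.28% and 2.14% in vascular endothelial cells. The cells above 5% were 25 of 368 endocardial cells, or 6.79% (4.44 to 9.87), against 22 of 421 vascular endothelial cells, or 5.23% (3.30 to 7.81). In fibroblasts, whose median was lower, 11.6% (9.81 to 13.6) lay above 5%. The share of cardiomyocytes was 58.3% in the E16.5 ablated and 49.5% in the E16.5 control sample. It was 27.5% in the E18.5 ablated and 15.2% in the E18.5 control sample. The endocardial medians were 2.32% in the E16.5 ablated and 2.41% in the E16.5 control sample. They were 2.18% in the E18.5 ablated and 2.27% in the E18.5 control sample. Both values were higher at E16.5 than at E18.5, and between stages cardiomyocyte share and stage cannot be told apart. Within each stage the ablated sample had the higher cardiomyocyte share and the lower endocardial median. RNA from cardiomyocytes outside the cells was not tested.

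**Figure D5:**
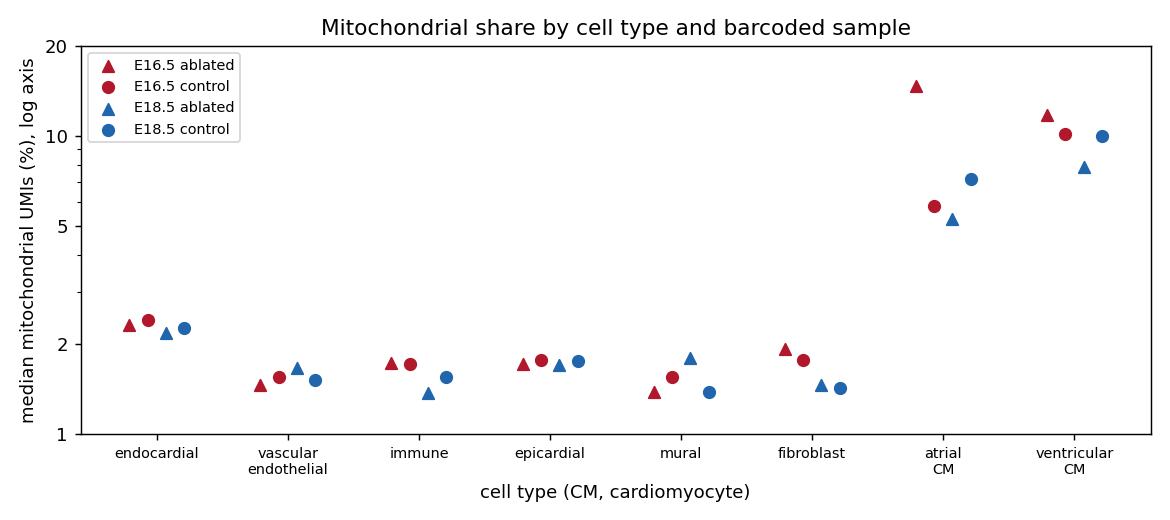
Median percent of mitochondrial UMIs per cell for each cell type and barcoded sample of pool 1, on a log axis; triangles are ablated and circles control samples, red at E16.5 and blue at E18.5. The 4 endocardial medians (2.18% to 2.41%) lie above the 20 medians of the other non-cardiomyocyte types (1.37% to 1.92%) and below those of the cardiomyocytes.

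Within the endocardial cells the ablated and control samples had close mitochondrial medians, with ablated minus control differences of -0.0902 points at E16.5 and -0.0849 points at E18.5 (exact permutation p = 0.5, the smallest possible; adjusted p = 1 over 3 measures). Cells above 5% were 5 of 67 in the ablated and 13 of 207 in the control sample at E16.5, and 6 of 49 in the ablated and 1 of 45 in the control sample at E18.5. The E18.5 difference of 10.0 points had an interval that held 0 (-2.19 to 22.7).

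UMI counts and detected genes of endocardial cells showed no common direction. The ablated minus control difference of the median UMI count was -1208 at E16.5 and 504 at E18.5. The median number of detected genes was 3439 in the ablated and 3651 in the control sample at E16.5, and 3363 in the ablated and 3093 in the control sample at E18.5. The exact permutation test gave p = 1 for each. Across the 4 samples the endocardial median ranged from 7741 to 9919 UMIs. The vascular endothelial median ranged more widely, from 6284.5 to 13804.5, and endocardial cells were the deeper type in 2 of 4 samples (mean difference -1366 UMIs, exact sign-flip p = 0.5).

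Endocardial cells called S or G2M were deeper than those called G1 in all 4 samples. In the E16.5 ablated sample the median UMI count was 12230.5 in S or G2M cells and 8469 in G1 cells, and in the E16.5 control 11690.0 in S or G2M cells and 9203.5 in G1 cells. In the E18.5 ablated sample it was 9267.5 in S or G2M cells and 7797 in G1 cells. In the E18.5 control the 2 values were close, at 7806 in S or G2M cells and 7730.5 in G1 cells.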

How the data were processed

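Cells of embryonic mouse hearts were captured with 10x 3' v3.1 chemistry in 2 pools, each of 4 barcoded samples, per the labels' protocols. Cell Ranger 7.1.0 and the build GRCm38 are listed, per the submitters' processing notes. How cells were filtered and clustered is not given in the sources used here. The deposited tables give, per the file headers, a UMI count and a count of detected genes per cell (raw whole numbers), the percent of mitochondrial UMIs, an S score and a G2M score, the called phase, the cell type name and cluster numbers. All cells of the tables were called single by the authors. Values of single genes were not analysed here, so no doublet caller, thinning of UMIs or planned test of summed gene counts was run.

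The copy of the integrated table used here ends inside a row and holds 4546 cells, all of pool 1, out of 7251. Names of the 5995 pool 2 cells were not analysed here. Samples, genotype and stage came from the deposited barcode key, and the barcoded sample was the replicate.

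Intervals of shares are exact binomial ones (Clopper-Pearson, 95%). Limits of a difference between shares were combined from these by the square-and-add method. Ablated and control samples were compared by permuting the condition within stage (4 reassignments, smallest p 0.5). Cell types were compared by flipping the sign of paired sample values (16 flips, smallest p 0.125). Both are exact and two-sided, with Benjamini-Hochberg adjustment. Neither can reach 0.05. The 4 samples differ in stage or genotype, so they came from different embryos, but the number of hearts in each is not given. With a single sample per stage and condition, the p-values reflect differences among samples that may be technical only. The functions were tested on simulated data. Clusters with endocardial cells were all named. Members, measures and lists were chosen with earlier results of these data known. Python 3.11.15, pandas 2.3.3 and SciPy 1.17.1 were used.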

Additional observations from a re-analysis of the deposited data

Results flagged for a closer look

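Several ablated minus control differences of the endocardial cells had opposite signs at E16.5 and E18.5. With 1 sample per stage and condition the difference between stages was not tested. The endocardial share of all cells differed by 1.57 points (E16.5) and -2.12 points (E18.5). The endocardial share of endothelial cells differed by 12.3 points (E16.5) and -9.66 points (E18.5). That of non-cardiomyocyte cells differed by 7.34 points (E16.5) and -1.37 points (E18.5), and that of non-fibroblast cells by 0.762 points (E16.5) and -6.31 points (E18.5).

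Among endocardial cells the share of cluster 5 differed by 1.82 points at E16.5 and -34.9 points at E18.5. Cluster 23 differed by -3.92 points (E16.5) and 22.1 points (E18.5), and cluster 31 by -1.63 points (E16.5) and 3.54 points (E18.5).

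The median UMI count of endocardial cells differed by -1208 at E16.5 and by 504 at E18.5. The median number of detected genes differed by -212 (E16.5) and 270 (E18.5).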

How the results depend on the processing

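Of 115 recomputed values, 100 kept the direction and side of the threshold, or stayed within the interval, of the value in the report. The means over both stages hide opposite signs. For E16.5 alone the ablated minus control difference was 1.57 points for the endocardial share of all cells, 1.82 for cluster 5, -3.92 for cluster 23 and -212 for detected genes. For E18.5 alone it was -9.66 points for the endocardial share of endothelial cells and 504 for UMI counts. Among non-cardiomyocyte cells the mean difference of the endocardial share was 2.98 points and that at E16.5 7.34. Among non-fibroblast cells that at E18.5 was -6.31. With G2M calls alone the phase difference was 3.13 points. Without the 10% lowest UMI counts (cells under 4047.4 UMIs) the mean difference was 0 for UMI counts and -65.5 for detected genes, and without the 10% highest mitochondrial percent (above 4.03%) that of genes was -94. Without the lowest UMI counts the mean difference of the endocardial share of endothelial cells was 4.87 points, against 1.34, the E18.5 difference in S or G2M calls was 0 points, and the endocardial minus vascular endothelial difference was -2762 for UMI counts. The cause was not tested.

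Leaving out each sample in turn, the endocardial minus vascular endothelial difference ranged from -336 to 98.8 for detected genes, which turned positive without either E16.5 sample (98.8 without the ablated, 34 without the control). It ranged from -33.7 to -23.1 points for S or G2M calls, from 0.702 to 0.817 points for mitochondrial percent and from -2307 to -378 for UMI counts. The S score difference ranged from -0.0806 to -0.0516 and the G2M score difference from -0.0933 to -0.0555. Leaving out a sample in the ablated and control comparisons leaves 1 stage, given above. The UMI window, the cells outside cluster 31, pool 1's own cluster and every alternative for the clusters were added after seeing the data. Ablated and control samples were matched by stage only, with a single sample of each per stage. No further pairing was possible because the named cells carry a single replicate number. The comparison of cell types was paired by sample. Between 45 and 207 endocardial cells per sample limit every share.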
